A study of Mus musculus with 15 samples.

Results

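Spon2, Papln, Angptl7, Clmp, Ackr4, Tspan4, Rasl11a, Fmo2 and Cpeb1 are 9 genes outside the circadian clock picked for a gap in mRNA level between 24 h and 12 h of CELF2 induction in the mouse heart. They were taken by symbol from a table of 16199 genes, of which 10557 had a mean of at least 1 RPKM (reads per kilobase of coding sequence, scaled to the mapped reads of the library) over the 15 hearts and were tested. Clmp and Ackr4 stand in the table under their older symbols, 9030425E11Rik and Ccrl1. The genes were chosen by their RPKM at 24 h and 12 h, so their 24 h and 12 h values are given as a description. Tests are kept to the other hearts. These include the control hearts, which may also have entered the choice, so the tests are not fully independent of it.

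RNA-seq of poly(A)+ RNA was done on ventricles (atria and a small part of the apex removed) of 15 FVB mice aged 14 to 16 weeks, in 5 groups of 3 separate animals. Induced mice were MHCrtTA/TRECUGBP2, in which the cardiomyocyte promoter of Myh6 drives a reverse tetracycline transactivator and a Tet-responsive transgene encodes human CELF2, and ate food with 2 g/kg doxycycline for 12 h, 24 h, 72 h or 7 d. The labels and methods give this dose, whereas a supplementary list of the animals gives a higher one. Control mice were MHCrtTA without the responder and ate the same food for 72 h, so the length of doxycycline feeding matches control only in the 72 h hearts. Food was withdrawn for a short time before doxycycline was offered, and no source used here gives the hour of the day at which a heart was taken. Time of induction and hour of harvest therefore cannot be told apart. A Celf1 cassette that the labels list for induced hearts goes against their genotype and was not used.

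The table gives no read totals, so depth is unknown, and 1463 to 1977 genes were listed at 0 per heart. Titles hold a code of unstated meaning with 3 values, here runs A to C. The 24 h and the 12 h group each had 1 heart in run A and 2 in run B, while the 7 d group had 1 in A and 2 in C and the 72 h group 2 in A and 1 in C. Y-linked mRNA was present in 1 of 3 control hearts, in 0 of the 12 h hearts, in 2 of the 24 h hearts and in all 72 h and 7 d hearts. The 6 cardiomyocyte markers summed to between 33586 and 42402 RPKM in every heart. The 4 atrial markers summed to 33.19 to 311.3 RPKM at 12 h and 58.39 to 117.44 RPKM at 24 h. Their sums were 39.76 to 88.66 RPKM in control hearts, 29.24 to 96.15 RPKM at 72 h and 23.57 to 131.43 RPKM at 7 d. How much atrial tissue stayed with each ventricle, and its part in the values of the chosen genes, was not tested. In such bulk tissue, fewer cells of a type and less RNA per cell cannot be told apart.

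The circadian clock of the heart is a feedback loop in which the activator ARNTL (BMAL1), paired with CLOCK, drives genes such as Per2 through E-box elements, and the PER and CRY proteins then repress that activator. Arntl and Per2 mRNA peak at opposite times of day, and they serve here as references for the order of the groups. Many genes that are not part of the loop, among them genes of the extracellular matrix and of small-molecule metabolism, also follow the time of day, feeding or hormones in the heart.

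A promoter entry of RefSeq (GRCm38.p6, 250 bases before to 50 after the start) was found for 7 of the 9 genes. These were searched on both strands for the E-box CACGTG, the D-box TTATGTAA, the ROR element TAGGTCA, the cAMP element TGACGTCA and the glucocorticoid receptor hexamer TGTTCT. The E-box occurred in 2 of the 7 (Tspan4 and Cpeb1), against 8.09% of 27025 genes, and the hexamer in 1 of the 7 (Fmo2), against 21.3%. The D-box, the ROR element and the cAMP element occurred in 0 of the 7, against 1.11%, 2.97% and 2.03% of all genes. The 2 stretches below show the matches upstream of a start site, at chr7:141476317-141476346 on the plus strand (Tspan4, match beginning at position -51 from the start) and chr1:162898601-162898630 on the minus strand (Fmo2, at position -125). Capitals mark the E-box in Tspan4 and the hexamer, read on the opposite strand, in Fmo2. A match of letters is no evidence that a factor binds there.
Tspan4: cccccatggagcCACGTGcagagccacgag
Fmo2: tcgggacgccagAGAACAcaaccagctttg

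Among the secreted and matrix proteins, Spon2 showed the widest gap between the 24 h and 12 h hearts. Spon2 (chr5:33556167-33560887, minus strand, mm9) encodes spondin 2 or mindin, a secreted matrix protein that binds integrins and takes part in innate immune responses. It measured 0.89, 0.97 and 0.56 RPKM in control hearts, 6.13, 5.73 and 5.39 RPKM at 12 h, 0.40, 0.56 and 0.53 RPKM at 24 h, 0.76, 1.09 and 0.49 RPKM at 72 h, and 1.73, 3.69 and 2.44 RPKM at 7 d. At 12 h all 3 hearts stood above the 12 others, and the 7 d hearts lay between them and the rest without touching either. Spon2 averaged 0.497 ± 0.0850 RPKM at 24 h and 5.75 ± 0.370 RPKM at 12 h (SD, n = 3 each), a difference of -2.65 in log2(RPKM + 0.5) that ranked 3 by size among the 10557 genes.

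Papln (chr12:85104584-85133332, plus strand) encodes papilin, a matrix glycoprotein built of domains shared with the ADAMTS proteins and of protease inhibitor domains. Its levels were 4.36, 5.76 and 5.11 RPKM in control hearts, 2.23, 2.13 and 1.76 RPKM at 12 h, 2.46, 3.10 and 3.32 RPKM at 24 h, 3.37, 3.88 and 3.80 RPKM at 72 h, and 3.74, 5.11 and 5.30 RPKM at 7 d. Its lowest 3 hearts were those at 12 h, and the group means stepped upward from 12 h through 24 h and 72 h to 7 d, with control at the top. The 24 h mean exceeded the 12 h mean by 0.44 on the log2 scale, the smallest of the 9 differences.

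Angptl7 (chr4:147869292-147874569, minus strand) encodes a secreted angiopoietin-like protein best known from the eye, where it is a component of the outflow tissue. The hearts gave 1.65, 2.52 and 3.49 RPKM in control, 1.04, 0.85 and 0.70 RPKM at 12 h, 3.48, 6.11 and 4 RPKM at 24 h, 1.54, 1.32 and 2.93 RPKM at 72 h, and 0.81, 1.02 and 1.65 RPKM at 7 d. No 24 h heart came near a 12 h heart (difference 1.86), but the 7 d hearts overlapped those at 12 h and the control hearts overlapped those at 24 h.

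The surface proteins comprise an adhesion molecule, a chemokine receptor and a tetraspanin. Clmp (chr9:40494045-40593402, plus strand) encodes a CXADR-like immunoglobulin protein of cell junctions, also named adipocyte-specific adhesion molecule. It measured 2.61, 2.50 and 2.73 RPKM in control hearts, 4.88, 5.83 and 5.80 RPKM at 12 h, 1.62, 2.44 and 1.76 RPKM at 24 h, 2.99, 2.49 and 2.51 RPKM at 72 h, and 3.33, 3.66 and 4.16 RPKM at 7 d. The 3 hearts at 12 h were above and the 3 at 24 h below all other hearts, so Clmp alone among the 9 genes had both groups at the ends of its range (difference -1.31). The 6 adipocyte markers summed to 7.31 to 9.79 RPKM at 24 h and 13.9 to 19.3 RPKM at 12 h, 12.1 to 20.1 RPKM in control hearts and 6.48 to 8.50 RPKM at 7 d, none of them at 0 in every heart, and their part in the Clmp values was not tested. In the mm9 annotation, 83 of its 1119 coding bases (7.42%) are overlapped by an exon of a long noncoding RNA, Gm16096, on the other strand. The libraries were strand-specific, but no source used here states whether the counting used the strand.

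Ackr4 has 2 overlapping records in the mm9 annotation (chr9:103986487-104004890 and chr9:104000468-104028973, minus strand). It encodes an atypical receptor that takes up and removes the chemokines CCL19, CCL21 and CCL25 without signalling through G proteins. Levels were 3.83, 3.54 and 4.34 RPKM in control hearts, 1.18, 0.80 and 1.07 RPKM at 12 h, 3.20, 3.18 and 2.90 RPKM at 24 h, 3.72, 3.36 and 4.07 RPKM at 72 h, and 2.38, 2.98 and 3.20 RPKM at 7 d. The 12 h hearts stood alone, below the other 12, which lay between 2.38 and 4.34 RPKM. The 24 h mean was 3.09 ± 0.168 RPKM and the 12 h mean 1.02 ± 0.196 RPKM (SD, n = 3 each), which differ by 1.25 in log2. Acad11, an acyl-CoA dehydrogenase gene on the other strand, shares exon bases with Ackr4 but 0 of its 1398 coding bases, and it differed by 0.14 between 24 h and 12 h.

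Tspan4 (chr7:148661139-148679326, plus strand) encodes a tetraspanin, a membrane-spanning protein known for building migrasomes on moving cells. It was the most abundant of the 9, at 38.69, 36.45 and 39.19 RPKM in control hearts, 14.47, 17.20 and 14.60 RPKM at 12 h, 28.54, 33.20 and 30.21 RPKM at 24 h, 25.19, 20.73 and 39.35 RPKM at 72 h, and 19.69, 22.92 and 25.69 RPKM at 7 d. Again all 12 h hearts were below the others, and the 24 h mean was 0.97 higher on the log2 scale. At 72 h the run C heart stood at control level while both run A hearts were well below it.

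The remaining genes act inside the cell. Rasl11a (chr5:147656647-147659302, plus strand) encodes a small GTPase of the RAS-like group that has been linked to transcription of ribosomal RNA genes. It had 0.81, 0.81 and 0.84 RPKM in control hearts, 2.56, 2.08 and 1.99 RPKM at 12 h, 1.13, 1.05 and 1.07 RPKM at 24 h, 0.66, 0.52 and 0.79 RPKM at 72 h, and 0.71, 1.11 and 1.47 RPKM at 7 d. Rasl11a was the least abundant of the 9 genes (mean 1.17 RPKM over 15 hearts) and would have failed the minimum of 1 RPKM over the control, 72 h and 7 d hearts alone, so it was tested only because of its 12 h and 24 h values. All 12 h hearts were above the others, and the log2 difference of 24 h from 12 h was -0.77.

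Fmo2 (chr1:164804448-164828857, minus strand) encodes a flavin-containing monooxygenase, an enzyme of the endoplasmic reticulum that oxidises nitrogen- and sulphur-bearing compounds. It measured 9.05, 13.67 and 15.26 RPKM in control hearts, 6.64, 7.32 and 8.16 RPKM at 12 h, 19.38, 25.63 and 21.12 RPKM at 24 h, 9.86, 7.26 and 11.23 RPKM at 72 h, and 5.70, 6.78 and 5.61 RPKM at 7 d. Unlike in the other 8 genes, the lowest mean was that of the 7 d hearts, which overlapped the 12 h hearts, while the 24 h hearts were above every other heart. The 24 h mean of 22.0 ± 3.23 RPKM was 2.99 times the 12 h mean of 7.37 ± 0.761 RPKM (SD, n = 3 each), a log2 difference of 1.51.

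Cpeb1 (chr7:88491912-88600351, minus strand) encodes an RNA-binding protein that recognises the cytoplasmic polyadenylation element and sets poly(A) tail length and translation of its targets. Its levels were 7.58, 9.48 and 7.75 RPKM in control hearts, 5.05, 3.55 and 3.72 RPKM at 12 h, 7.28, 6.90 and 5.84 RPKM at 24 h, 7.93, 8.05 and 6.96 RPKM at 72 h, and 9.16, 8.47 and 8.81 RPKM at 7 d. As for Papln, the 12 h hearts were the lowest and the induced groups stepped upward with time, here ending above control. The difference of 24 h from 12 h was 0.65.

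**Figure D1:**
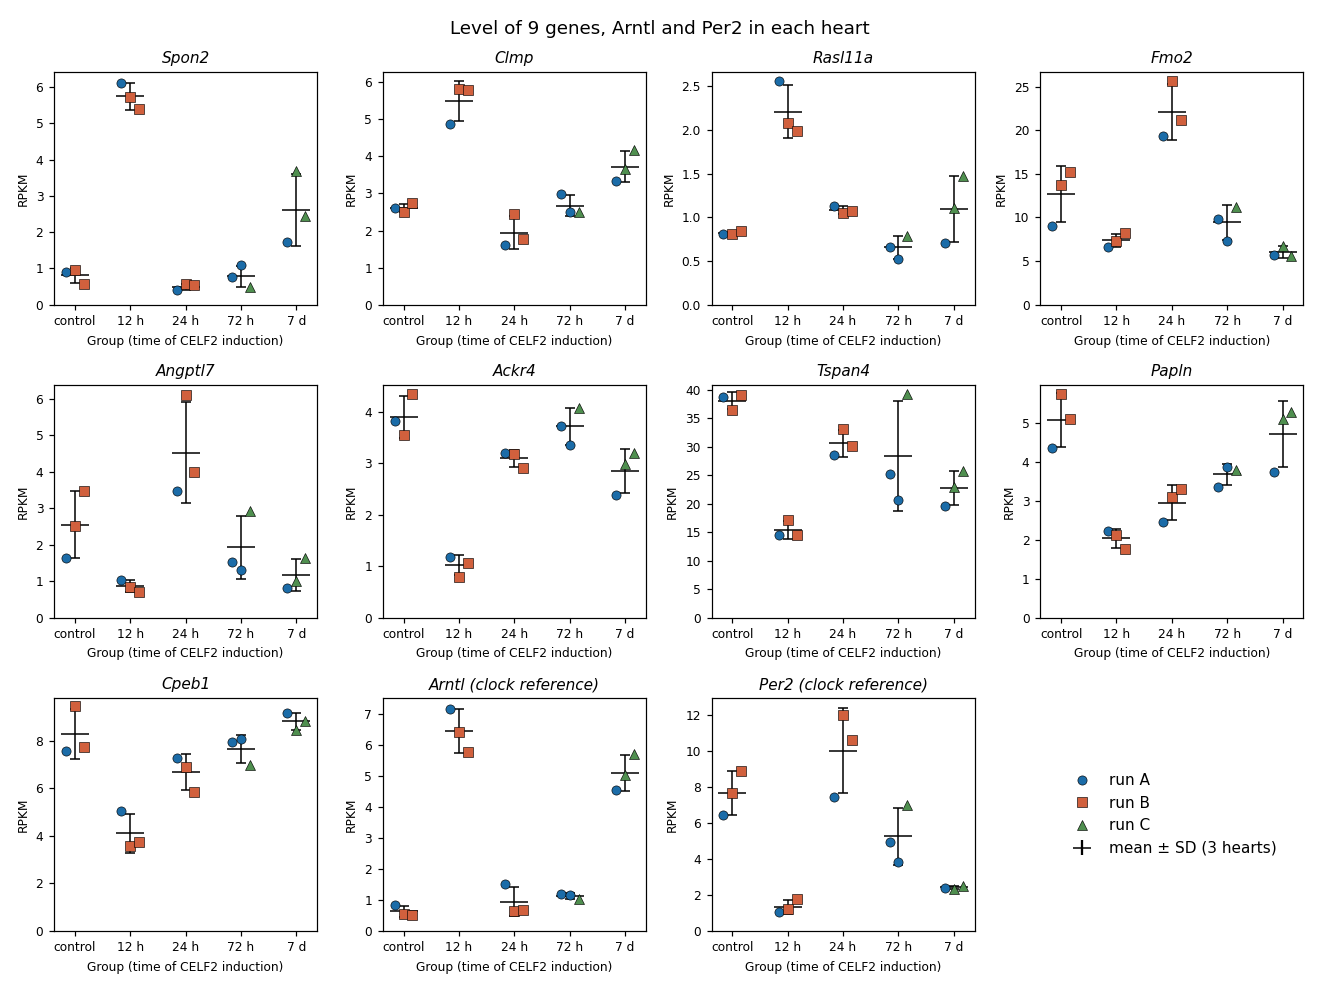
Level (RPKM, linear axis from 0) of the 9 genes, Arntl and Per2 in each of 15 hearts, by group. Points are hearts, shaped by run, with the group mean and SD as bars. The 12 h hearts are above all others for Spon2, Clmp and Rasl11a and below all others for Ackr4, Papln, Tspan4 and Cpeb1, whereas Fmo2 and Angptl7 have 7 d hearts as low as those at 12 h.

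Across the 9 genes the 24 h mean was higher in 6 and lower in 3 (Spon2, Clmp and Rasl11a), and the 24 h and 12 h hearts did not overlap in any of the 9, a pattern that 8.8% of the tested genes shared. In a limma fit over 15 hearts 0.559% of the tested genes (59) had an adjusted p under 0.05 at 24 h against 12 h, and 6 of the 9 were among them. Ackr4, Fmo2, Angptl7 and Tspan4 were called higher (0.341% of tested genes) and Spon2 and Clmp lower (0.218%), while Rasl11a, Cpeb1 and Papln were not called. At the edge, Tspan4 (0.97) had the smallest difference of the 6 and Rasl11a (-0.77) the largest of the other 3. Against control hearts, 7 of the 9 were among the called genes at 12 h (0.388% of tested genes) and 0 of the 9 at 24 h (0.0947%). These shares come from the contrasts the choice rested on, or share hearts with them, and nothing is read from them.

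The direction of all 9 differences was the same within run A, where both hearts lacked Y-linked mRNA, and within run B. Because the 24 h and 12 h hearts did not overlap in any of the 9, no other direction was possible in either run. Spon2 differed by -2.88 within run A and -2.54 within run B, and Fmo2 by 1.48 and 1.53. The weakest was Papln, at 0.12 within run A and 0.61 within run B. In run B the 24 h hearts held Y-linked mRNA and the 12 h hearts did not, and its part there was not tested. The 7 endothelial markers summed to 1126 to 1191 RPKM at 24 h and 1015 to 1125 RPKM at 12 h, a narrow gap with 0 of 7 markers called and none at 0 in every heart. The summed fibroblast markers (604 to 661 and 629 to 642 RPKM) and macrophage markers (71.9 to 77.2 and 63.7 to 94.3 RPKM) overlapped between 24 h and 12 h. Of the 9 fibroblast markers 1 was called, the collagen gene Col3a1 (-0.81, lower at 24 h), while Dcn, the most abundant of them, differed by 0.21, and their part in the values of the 9 genes was not tested.

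With the 24 h and 12 h hearts set aside, 7 d against 72 h is the comparison least touched by the choice. Both groups had Y-linked mRNA in all hearts. Spon2 rose in 7 d hearts, by 1.26 ± 0.25 on the log2 scale (SE, n = 3 hearts each, adjusted p = 0.0391, limma with Benjamini-Hochberg adjustment over 10557 genes), and was the only one of the 9 to pass, where 1.85% of all tested genes did (1.25% higher, 0.597% lower). Its mean was 2.62 ± 0.992 RPKM at 7 d and 0.780 ± 0.301 RPKM at 72 h (SD, n = 3 each), and every 7 d heart was higher than every 72 h heart. Within run A the difference was 0.66 and within run C 1.83. The call was lost when 72 h replicate 1 or 2 was left out (adjusted p = 0.1575 and 0.0600) and when 7 d replicate 2 or 3 was (adjusted p = 0.1645 and 0.124).

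The other 8 genes did not pass at 7 d against 72 h, and their intervals leave room for changes in size. Clmp differed by 0.41 (95% interval 0.15 to 0.68, limma adjusted p = 0.112) and Rasl11a by 0.44 (0.04 to 0.85, limma adjusted p = 0.243). Rasl11a was in the fit only because of its 12 h and 24 h values, so its result is a description. On the other side, Fmo2 differed by -0.59 (-1.05 to -0.13), Angptl7 by -0.52 (-1.19 to 0.14), Ackr4 by -0.34 (-0.63 to -0.04) and Tspan4 by -0.27 (-0.72 to 0.18), with limma adjusted p between 0.174 and 0.518. Papln (0.31, -0.03 to 0.64) and Cpeb1 (0.20, -0.06 to 0.45) had positive values, whereas their 24 h means were above their 12 h means. The reference genes both passed, Arntl at 1.79 (limma adjusted p = 0.0017) and Per2 at -0.95 (limma adjusted p = 0.0391). The median difference of all tested genes in this comparison was 0.11, and scaling between hearts shifted that median by -0.10 to -0.11.

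**Figure D2:**
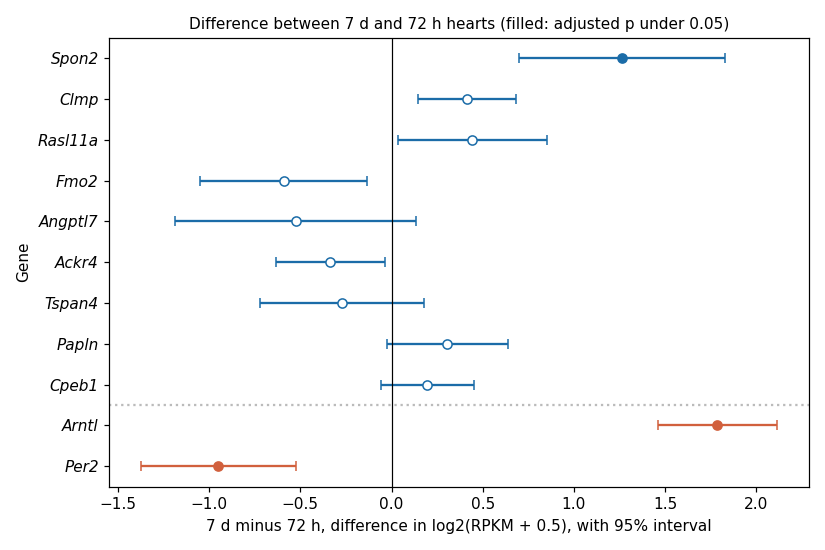
Difference of 7 d from 72 h hearts in log2(RPKM + 0.5) for the 9 genes, Arntl and Per2, with 95% intervals from limma (3 hearts each). Filled points have an adjusted p under 0.05, which are Spon2 (1.26), Arntl (1.79) and Per2 (-0.95).

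The 7 d and 72 h hearts did not overlap for 5 of the 9 genes, with Spon2, Clmp and Cpeb1 above and Ackr4 and Fmo2 below, where 20.5% of all tested genes did not overlap. Each of these had p = 0.1 in a two-sided exact permutation test, the smallest that 3 against 3 hearts allow. In 7 of the 9 genes the sign of 7 d less 72 h was that of 12 h less 24 h, Papln and Cpeb1 being the other two. Over all tested genes 48.4% had such a sign, and over the 59 genes called at 24 h against 12 h 84.7% had it (80.9% without the 9 and the clock genes), so the count in the 9 is no larger a share than in that set. All 9 differences kept their sign in both runs, which for the 5 genes without overlap was fixed in advance. With the run as a covariate 4 of the 9 passed, since Ackr4, Fmo2 and Angptl7 joined Spon2, but 9.3% of all tested genes then passed as well.

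Compared with control hearts, 4 of the 9 passed at 7 d, where 10.7% of all tested genes did. These were 2 higher, beside 6.3% of all genes, and 2 lower, beside 4.42%. Control hearts may have entered the choice of the genes, and the Y-linked mRNA and runs of control and 7 d hearts differ. Spon2 rose by 1.22 ± 0.25 (SE, limma adjusted p = 0.0150) and Clmp by 0.43 ± 0.12 (limma adjusted p = 0.0464) at 7 d, whereas Fmo2 fell by 0.98 (SE 0.20, limma adjusted p = 0.0153) and Tspan4 by 0.74 (SE 0.20, limma adjusted p = 0.0435). Fmo2 averaged 6.03 ± 0.651 RPKM at 7 d and 12.7 ± 3.23 RPKM in control hearts, and Tspan4 22.8 ± 3.00 and 38.1 ± 1.46 RPKM (SD, n = 3 each). The hearts of the 2 groups did not overlap for either gene, nor for Spon2, Clmp and Ackr4, where 31.7% of all tested genes did not. Angptl7 (-0.87, limma adjusted p = 0.0950) and Ackr4 (-0.40, limma adjusted p = 0.0911) did not pass, nor did Rasl11a (0.25), Papln (-0.10) and Cpeb1 (0.09). With Y-linked mRNA as a covariate 0 of the 9 passed, beside 0.493% of all tested genes, and with the run 1 of the 9 (Tspan4), beside 10.8%.

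At 72 h against control, where doxycycline feeding was matched, 0 of the 9 genes passed in limma, against 0.53% of all tested genes. At an unadjusted p under 0.05 there were 2, Papln (-0.41) and Tspan4 (-0.47), beside 15.0% of all tested genes. Papln hearts did not overlap between 72 h and control, at the smallest p an exact permutation test allows, 0.1 (18.1% of all tested genes did not overlap). Those of Rasl11a did not overlap either. Rasl11a was in the fit only because of its 12 h and 24 h values, so its result is a description. Without 72 h replicate 3, the run C heart at 39.35 RPKM, Tspan4 passed.

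The order of the groups was set beside those of Arntl and Per2. Arntl averaged 0.623, 6.45, 0.943, 1.12 and 5.09 RPKM in control, 12 h, 24 h, 72 h and 7 d hearts, and Per2 averaged 7.68, 1.35, 10.04, 5.26 and 2.41 RPKM. The references thus ran opposite to each other, with a Spearman rho of -0.9 over the 5 group means. Spon2 and Clmp shared with Arntl a high 12 h mean followed by 7 d, at a rho of 0.7 and 0.9, and Rasl11a also had 12 h and 7 d on top (rho 0.7) though with a much lower 7 d level. Angptl7 had exactly the order of Per2, namely 24 h, control, 72 h, 7 d, 12 h from high to low (rho 1). Fmo2 and Tspan4 came close to Per2 (rho 0.9 each), and Tspan4 was the mirror image of Arntl (rho -1), while Ackr4 had a rho of 0.7 with Per2. Papln (0.3 with Per2, -0.6 with Arntl) and Cpeb1 (0.1 and -0.3) followed neither.

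In total 3 genes had a rho of at least 0.7 with Arntl and 4 with Per2, together 7 of 9, where 6.67% of all tested genes reached that mark with Arntl and 7.29% with Per2 (14.0% with either). The 12 h and 24 h means that chose the genes are 2 of the 5 points, so this share is a description only. Neighbours in these orders often overlapped. All 4 neighbouring pairs overlapped in Angptl7, 3 of 4 in Fmo2 and Cpeb1, 2 of 4 in Spon2, Ackr4, Papln and Tspan4, and 1 of 4 in Clmp (72 h and control) and Rasl11a (7 d and 24 h). In 7 of the 9 genes the 12 h hearts lay outside the range of the other 12, where 1.14% of all tested genes did. In 3 they were above (0.36% of all tested genes) and in 4 below (0.777%). The choice used the 12 h hearts, so this count is also a description only.

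The 7 d means were also placed between the 24 h mean (0) and the 12 h mean (1) on the log2 scale, as a description. Arntl stood at 0.86 and Per2 at 0.73. Angptl7 (0.86), Clmp (0.61), Spon2 (0.60) and Tspan4 (0.44) were part of the way to 12 h, and Fmo2 (1.18) was past it. The 7 d means of Ackr4 (0.09) and Rasl11a (-0.02) were near the 24 h mean. Those of Papln (-1.33) and Cpeb1 (-0.59) lay on the far side of it. Each place is divided by the difference that chose the genes, so a small difference enlarges it. The difference of 24 h from 12 h was 0.44 for Papln and 0.65 for Cpeb1, but -2.65 for Spon2. At 72 h the places were 0.09 for Arntl and 0.35 for Per2, and among the genes they ran from -0.63 (Papln) to 0.79 (Fmo2).

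**Figure D3:**
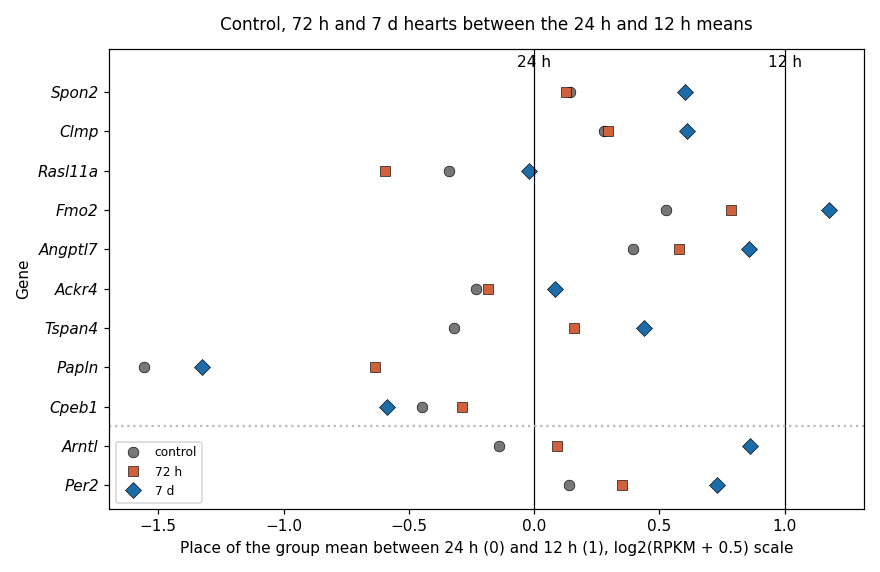
Place of the control, 72 h and 7 d group means between the 24 h mean (0) and the 12 h mean (1), on the log2(RPKM + 0.5) scale, for the 9 genes and, under the dotted line, Arntl and Per2. The 7 d means of Spon2, Clmp, Angptl7 and Fmo2 lie at 0.60 to 1.18 and those of Papln and Cpeb1 at -1.33 and -0.59, where Arntl has 0.86 and Per2 0.73. Places are divided by the gap between 12 h and 24 h, so the small gaps of Papln and Cpeb1 enlarge theirs.

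Over the 9 control, 72 h and 7 d hearts, Pearson's r with Per2 was 0.95 for Fmo2, 0.88 for Tspan4, 0.87 for Angptl7 and 0.86 for Ackr4. With Arntl it was 0.91 for Clmp, 0.88 for Spon2 and 0.57 for Rasl11a. Papln had 0.04 with Arntl and 0.09 with Per2, and Cpeb1 turned over, from the -0.43 with Arntl that all 15 hearts gave to 0.42 in these 9. These values rest on 3 groups of 3 hearts, which share libraries and groups with one another, and describe these hearts only. Between genes of the 9 that moved to the same side, r over 15 hearts had a median of 0.67, and between opposite sides -0.71. The sides were set by the 24 h and 12 h hearts, which are among the 15, so these signs follow in part from the choice. Once each heart was taken as its deviation from the group mean, the medians were 0.23 (range -0.46 to 0.72) and 0.18 (range -0.32 to 0.76). The medians thus no longer differed in sign, but single pairs of either kind ran from negative to positive.

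The genes whose levels ran most closely with each of the 9 over the 15 hearts include clock genes and other genes of the 9. The 24 h and 12 h hearts that chose the 9 are among the 15, so these values follow in part from the choice. The clock genes named here, Arntl, Hlf and Tef, were themselves called at 24 h against 12 h. Spon2 was closest to Clmp (r = 0.93), Arntl (0.91) and Col5a3 (0.89), a fibrillar collagen chain. Clmp was in turn closest to Spon2, the membrane metalloprotease gene Mmp14 (0.92) and Col5a3 (0.90). Ackr4 ran with Hlf (0.94) and Tef (0.90), which encode PAR bZIP factors under clock control, and with Lonrf1 (0.90). Tspan4 had Angptl2 (0.93), Slc25a33 (0.91) and Tef (0.90).

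Angptl7 was closest to Adh1 (0.97), an alcohol dehydrogenase gene, then to Timp3 (0.94), a metalloprotease inhibitor gene, and Slc43a3 (0.93). Fmo2 shared Adh1 (0.94) with it and also ran with Rhobtb1 (0.95) and Map3k6 (0.93). Papln was closest to Gins2 (0.94), Thrsp (0.92) and the nonmuscle myosin gene Myh9 (0.90), Cpeb1 to the laminin chain Lamc1, Tnrc6c and Ddef1 (0.91 each), and Rasl11a to Tmem71 (0.89), Id2 (0.85) and Txndc1 (0.84). Likeness over these hearts includes the group differences, the run and any shared depth.

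Relatives of the 9 genes were counted in the same comparisons. At 24 h against 12 h, 0 were called of 7 tested spondin and thrombospondin-repeat genes, 3 chemokine scavenging relatives of Ackr4, 7 junctional immunoglobulin genes, 8 RAS-like GTPases, 2 flavin monooxygenases, 6 angiopoietin-like genes, 9 ADAMTS relatives, 20 tetraspanins and 14 cytoplasmic polyadenylation genes. Together these were 0 of 76 tested relatives, beside 0.559% of all tested genes, and nothing is read from so small a share. The median differences of these lists ran from -0.12 to 0.20, beside 0.0037 over all tested genes. Spon1 (0.69), Rrad (-0.60) and Tspan18 (-0.93) had the largest differences in their lists, none called. Tspan18, another tetraspanin, averaged 3.12, 5.89, 2.91, 2.87 and 5.45 RPKM in control, 12 h, 24 h, 72 h and 7 d hearts, high where Tspan4 was low. Fmo1, the sister gene of Fmo2, had 31.7 RPKM at 24 h and 23.7 RPKM at 12 h on average, a difference of 0.41 that was not called. Among the 76 relatives 1 (1.32%) passed at 7 d against 72 h, beside 1.85% of all tested genes. It was Ackr3, an atypical receptor for CXCL12, which rose by 0.65 (limma adjusted p = 0.0148).

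In 7 d hearts 6 of the 76 tested relatives (7.89%) passed against control, no larger a share than the 10.7% of all tested genes. Ackr3 (0.79) and Cxadr (0.86), the junction protein after which Clmp is named, were higher. Fmo5 (-0.39), Angptl4 (-0.93), Adamts1 (-0.66) and Tob2 (-1.29) were lower. Cxadr had the sign of Clmp and Fmo5 that of Fmo2, Angptl4 and Adamts1 had the sign of Angptl7 and Papln, which did not pass, while Ackr3 and Tob2 had the opposite sign to Ackr4 and Cpeb1, which did not pass either.

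Of 21 tested clock genes, 5 were called higher and 1 lower at 24 h against 12 h, beside 0.341% and 0.218% of all tested genes. At 7 d against 72 h, 2 were called higher and 5 lower, beside 1.25% and 0.597%. A list of 16 tested glucocorticoid-induced genes, known targets of a hormone with a daily rhythm, had a median of 0.41 at 24 h against 12 h with 1 called (Zbtb16, 1.73, higher at 24 h). Dusp1 (-0.93) and Pdk4 (-0.67), not called, had the largest differences the other way. The median of the list at 7 d against 72 h was -0.35, beside 0.11 over all tested genes, with 1 called (Tsc22d3, lower by 0.95 at 7 d). At 7 d against control its median was -0.86, beside 0.030 over all tested genes. Of the 16, 7 were called there, all lower, beside 4.42% of all tested genes. The summed level of that list was 312 to 413 RPKM at 7 d and 468 to 658 RPKM at 72 h, and its part in the values of the 9 genes was not tested. Among the genes called at 24 h against 12 h, the largest differences outside the 9 and the clock were those of the immediate-early genes Egr1 (-2.21) and Fos (-2.08), of Adh1 (2.00), of Col5a3 (-1.98) and of the chemokine gene Ccl7 (-1.91). Spon2, at -2.65, exceeded all 5 in size. The Y-linked Eif2s3y (3.81) and Ddx3y (3.53), which were not called, exceeded Spon2.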

How the data were processed

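The authors mapped strand-specific paired reads to mm9 with Bowtie and TopHat (versions not given in the sources used here) and deposited RPKM per gene and heart, scaled to uniquely mapping nonribosomal, nonmitochondrial reads. Groups came from the sample labels, and 0 columns were left unused. The 9 genes and the gene lists were chosen with earlier results of these data known. limma 3.58.1 (R 4.3.3) with a mean-variance trend was fitted to log2(RPKM + 0.5) of the 10557 genes averaging at least 1 RPKM over 15 hearts, with Benjamini-Hochberg adjustment over all of them. The tests used the 9 control, 72 h and 7 d hearts in 1 fit, so that the spread at 12 h and 24 h did not enter. A fit of all 15 hearts gave the shares at 24 h against 12 h. The pseudocount shrinks differences of low genes such as Rasl11a. Scripts were tested on simulated data. No 2 libraries held identical values.

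Genes named besides the 9, Arntl and Per2 are the 3 with the highest Pearson r for each of the 9, up to 5 with the largest called difference at 24 h against 12 h, and listed relatives called in a tested comparison or, where none was, with the largest difference (Fmo1, Zbtb16, Dusp1, Pdk4, Col3a1, Dcn and the Y-linked genes were added after their values were seen). Gene positions are from the mm9 annotation, promoters from RefSeq (GRCm38.p6). Alternatives were other pseudocounts, filters, scalings, covariates, sets of hearts, library quality weights and leaving out each heart. Run and Y-linked mRNA together as covariates were added after the data were seen. Correlations, permutation tests and counts used Python 3.11.15, numpy 2.4.6, scipy 1.17.1 and pandas 2.3.3.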

Additional observations from a re-analysis of the deposited data

How the results depend on the processing

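All 9 differences at 24 h against 12 h kept their sign under every alternative, with Spon2 between -3.30 and -2.17 and Papln between 0.34 and 0.55, and 12 of 138 values moved by over 1 SD. The 12 h hearts of 7 genes stayed outside all others in each scaling and left-out heart. Leaving out a heart could not undo this. Nor could it reverse a difference at 24 h against 12 h, because the hearts of these groups did not overlap. The number ordered as Arntl or Per2 was 5 under each scaling and 6 to 7 with a heart left out, against 7. No paired analysis was possible because the labels give no replicate numbers that link the groups.

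At 7 d against 72 h the number of the 9 genes called (1) was 0 with no filter, with a mean of at least 5 RPKM, with Y-linked mRNA as a covariate and with the 2 groups alone, 4 with the run or with run and Y-linked mRNA, and 0 to 1 with a heart left out. Spon2 passed in 11 of 18 alternatives (difference 1.00 to 1.62). At 7 d against control (4) it was 2 with no filter and with a mean of at least 5 RPKM, 1 with the run, 0 with Y-linked mRNA alone or with the run, and 0 to 3 with a heart left out (0 without control replicate 3, 1 without 7 d replicate 2, 7 d replicate 3 or control replicate 2, 2 without control replicate 1). At 72 h against control (0) it was 0 to 1 with a heart left out. Library quality weights gave 7, 6 and 4 in these comparisons and called 6369, 3715 and 4617 genes, but their estimation stopped before it converged, and these values are not relied on.

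Genes called at 7 d against 72 h (195) numbered 335, 337 and 297 under median-ratio, upper-quartile and quantile scaling, 982 with the run, 85 with Y-linked mRNA, 941 with both, 57 with the 2 groups alone and 23 to 800 with a heart left out. At 7 d against control (1132) they numbered 52 with Y-linked mRNA, 13 with both and 494 to 849 with a heart left out, and at 72 h against control (56) 1 with Y-linked mRNA, with both and with the 2 groups alone, and 1 to 501 with a heart left out. Of called genes, the share that was higher moved under the 3 scalings to 44.2%, 43.0% and 47.1% at 7 d against 72 h (67.7% as deposited), to 58.2%, 53.9% and 52.2% at 72 h against control (39.3%) and to 45.7% under upper-quartile scaling at 7 d against control (58.8%).

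In 24 instances a difference that was not called changed sign, each with an adjusted p of at least 0.606 in limma, and the cause was not tested. At 72 h against control these were Spon2 (0.020, 0.011 and 0.055) and Ackr4 (0.020, 0.0066 and 0.040) under median-ratio, upper-quartile and quantile scaling, Cpeb1 with the run (0.054) or with both covariates (0.35), Spon2 (0.27 and 0.34) and Clmp (-0.031 and -0.11) with Y-linked mRNA and with both. With a heart left out they were Clmp (-0.053 and -0.0065, range -0.053 to 0.059), Ackr4 (0.00014 and 0.0083, range -0.12 to 0.0083) and Spon2 (0.13, 0.0094 and 0.050, range -0.21 to 0.13). At 7 d against control they were Rasl11a with the run (-0.011) or both (-0.046), Papln with both (0.10) or without 7 d replicate 1 (0.040, range -0.20 to 0.040), and Cpeb1 with library weights (-0.0063). Depth is unknown, so the spread between 3 hearts sets the limit of every value.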
